A study of Mus musculus with 8 samples.

Results

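Elastic fibres give an artery its recoil. They form when tropoelastin, the product of Eln, is laid down on microfibrils of fibrillin, guided there by fibulins and joined into an insoluble polymer by lysyl oxidases that act on lysine side chains. In arteries the medial smooth muscle cells make most of the elastin, while adventitial fibroblasts also make microfibril proteins, and adult vessels replace lost elastic fibres poorly.

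The 10 elastic fibre assembly genes described here were Eln, the fibrillin genes Fbn1 and Fbn2, the fibulin genes Fbln1, Fbln2 and Fbln5, the lysyl oxidase genes Lox and Loxl1, and the microfibril-associated protein genes Mfap4 and Mfap5. They were taken by name, as every noncontrol probe whose gene name in the scanner files was one of the 10. This gave 15 probes of the 55681 on the array, and 10 of the 23830 genes or transcripts tested. All 15 were well above background on all 8 arrays, so none depended on the filter on dim probes. Fbn2, Fbln1, Fbln5, Lox and Loxl1 had 2 probes each and the other 5 genes had 1.

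The mice without the microRNA were miR-126-/-/ApoE-/- (n = 4) and their controls were miR-126+/+/ApoE-/- (n = 4). All 8 lacked apolipoprotein E, were female and 6 weeks old by the labels, were of mixed background, ate a western-type diet and had a wire-injured carotid artery collected after 14 days. Each mouse gave 1 Agilent single-colour array, and the question was how the injured artery differs without miR-126, a microRNA of endothelial cells. The RNA came from whole artery, so fewer cells of a type and less RNA per cell cannot be told apart.

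Between 55.9% and 61.5% of probes were well above background on each array, 0 spots were saturated, and arrays correlated at 0.959 to 0.987 with each other. All arrays shared 1 slide, but miR-126-/- arrays lay in slide row 2 and miR-126+/+ arrays in slide row 1, and the effects of genotype and of slide row cannot be told apart. The mouse numbers were also the slide columns, 1 to 4, each of which held 1 array of either genotype. The 9 smooth muscle markers, 9 fibroblast markers and 8 endothelial markers were all above background on all 8 arrays. Array miR-126-/- 1 and array miR-126+/+ 2 stood apart by skeletal muscle genes, whose list mean (7 of 8 genes tested) was 2.85 and 3.07 log2 units there, against -2.55 to 0.37 on the other 6 arrays. Adipocyte markers (10 of 10 tested) were all higher in miR-126-/- arteries, with list means of 3.54 to 4.51 there and 2.18 to 3.60 in miR-126+/+ arteries. None of these 10 passed after adjustment in limma, while 9 were under 0.05 before it, and the part of fat or muscle RNA in the results below was not tested. Endothelial list means were 2.95 to 3.34 in miR-126-/- arteries and 2.76 to 3.08 in miR-126+/+ arteries. Of these 8 markers, which include Egfl7, 7 had a positive difference and 1 a negative one (median 0.25, 3 under 0.05 before adjustment in limma, 0 after). List means of 8 macrophage markers were 4.33 to 4.96 in miR-126-/- and 4.52 to 4.87 in miR-126+/+ arteries, with 3 differences positive and 5 negative. Of 7 lymphocyte markers 6 were tested and all 6 had a positive difference (median 0.79, 3 under 0.05 before adjustment), with list means of -0.40 to 1.01 in miR-126-/- arteries and -0.94 to -0.21 in miR-126+/+ arteries. Egfl7, whose intron holds miR-126, differed by 0.49 ± 0.13 (SE, n = 4 each; limma adjusted p = 0.275), and Apoe by 0.63 ± 0.27 (adjusted p = 0.507). Which part of either locus was disrupted is not given in the sources used here, so these probes do not check the labels.

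Genes with probe pairs allow a check of the measurement, and the letters of 3 such pairs and of the Eln probe are shown because the results below rest on them. The sequences are those of the scanner files, printed 5′ to 3′ as given there, and positions are on mm9. With no annotation of mm9 at hand, exon and untranslated parts are not given, and each probe is placed by its first base in the RefSeq transcript that the files name. The Loxl1 probes begin at bases 2075 and 1553 of the transcript. They are 522 bases apart there and 6881 bases apart in the genome, so spliced-out sequence lies between them. The Fbln1 probes (bases 2632 and 2184) and the Fbln5 probes (bases 2394 and 5669) are as far apart in the genome as in the transcript, at 448 and 3275 bases.

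Loxl1 brighter probe, chr9:58138570-58138629, minus strand: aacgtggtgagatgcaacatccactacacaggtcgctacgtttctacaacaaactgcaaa
Loxl1 second probe, chr9:58145451-58145510, minus strand: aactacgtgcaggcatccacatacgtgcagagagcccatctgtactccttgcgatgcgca
Fbln1 brighter probe, chr15:85115998-85116057, plus strand, bases 1 to 30: ttttttaaccaacggggctctttgtgtttc
Fbln1 second probe, chr15:85115550-85115609, plus strand, last 3 bases in capitals: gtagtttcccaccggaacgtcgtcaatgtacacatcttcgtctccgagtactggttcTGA
Fbln5 brighter probe, chr12:102988153-102988212, minus strand, bases 31 to 60, motif in capitals: acagaggtatccagactgATTAAAtatttg
Fbln5 second probe, chr12:102984878-102984937, minus strand, bases 31 to 60: tagagtttagtaattactaagccatatcta
Eln probe, chr5:135179129-135179188, minus strand, bases 1 to 30: ataccggaagccttgacgatggatttggtg

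Read in triplets from its first base, the second Fbln1 probe has a stop triplet only at its end, the TGA, and 4.95% of all probes have TAA, TAG or TGA only there. The brighter Fbln5 probe holds ATTAAA, a form of the signal that precedes the cut at the 3′ end of many transcripts. AATAAA or ATTAAA, searched on the probe strand alone, stood in 4 of the 15 probes and in 13.7% of the 55681 probes. The single probes of the other genes outside chromosome 18 lie at chr2:125126727-125126786 for Fbn1 (minus strand), chr6:91222118-91222177 for Fbln2, chr11:61302147-61302206 for Mfap4 and chr6:122478591-122478650 for Mfap5 (plus strand). The second Fbln5 probe begins 3275 bases further along the transcript and holds neither. These are descriptions of the letters and show no processing site.

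None of the 10 genes showed a genotype difference that passed the test after adjustment over all probes. By the brightest probe of each gene, 5 had a positive and 5 a negative difference (miR-126-/- minus miR-126+/+), with a median difference of 0.0019 log2 units, against 0.0076 over all 23830 genes. In limma 0 of the 15 probes passed at an adjusted p of 0.05, as 0.0369% of all 32484 probes tested did. At an unadjusted p under 0.05, 1 of the 15 probes (6.67%) stood out, against 9.85% of all probes, and 0 of the 10 brightest probes, against 10.1% of all genes. The genotypes overlapped for all 15 probes. By the brightest probe 0 of the 10 genes were without overlap, against 6.27% of all genes, and 10 genes are too few to tell these shares apart. Adjusted p-values of the 10 brightest probes ran from 0.700 to 0.970. For them a two-sided exact permutation test, with 70 ways to arrange the arrays, gave no p below 0.171, where the smallest possible is 0.0286. The 95% intervals of the 10 differences by the brightest probe together spanned 0.520-fold to 2.21-fold, and that of the second Fbln1 probe reached down to 0.442-fold. With 4 mice in each group these intervals are wide. Set against each other within the 4 slide columns, the genotypes gave differences of mixed sign for all 10 genes, and column 2 gave a positive one for each of them. With slide column as a block 0 of the 10 genes passed in limma.

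**Figure D1:**
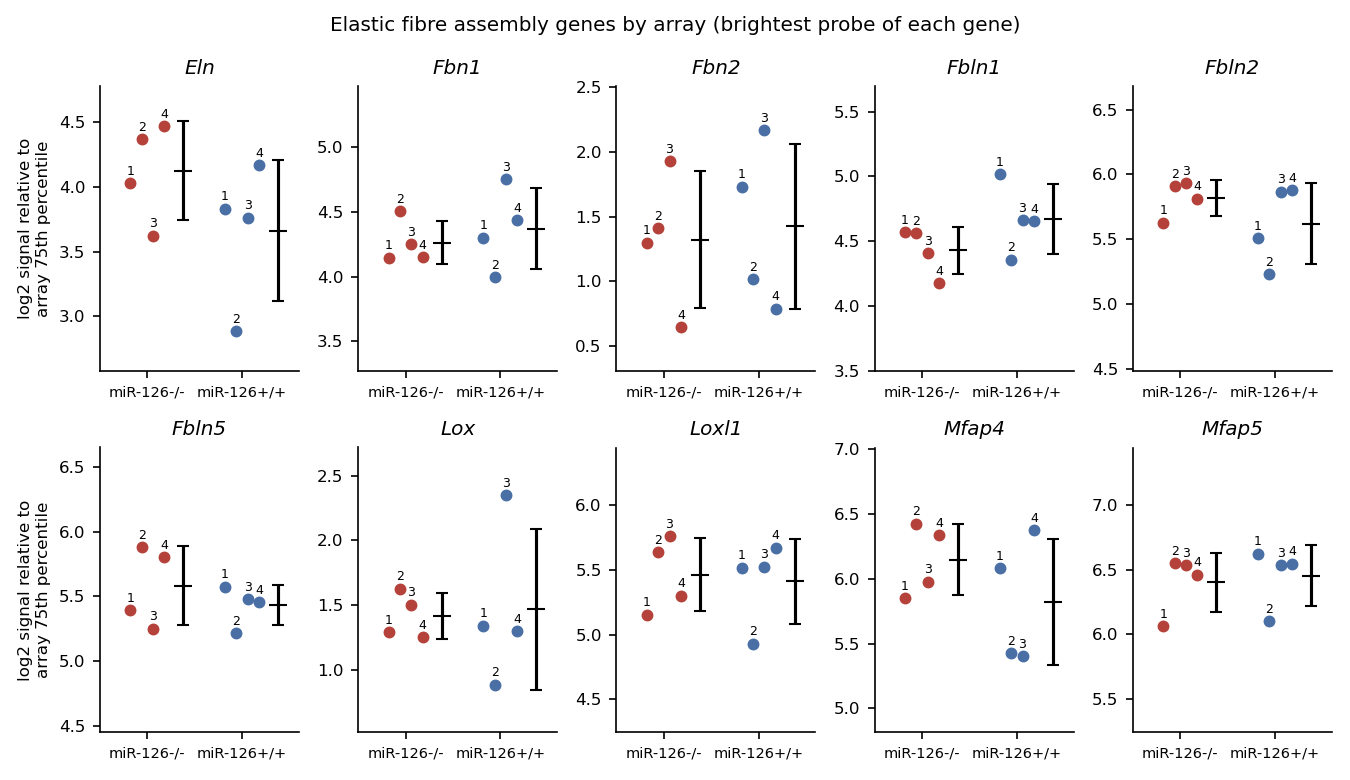
Each panel plots the scaled log2 signal (0 is the 75th percentile of an array) for the brightest probe of a gene, with 1 numbered point per array, miR-126-/- in red and miR-126+/+ in blue, and the mean ± SD (n = 4) in black. All panels span 2.2 log2 units, the genotypes overlap in each, and array miR-126+/+ 2 is the lowest of its genotype for 8 of the 10 genes.

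Eln encodes tropoelastin, the monomer of the elastic core. Its log2 signal, scaled to each array's 75th percentile as are all levels here, was 4.03, 4.37, 3.63 and 4.47 in the miR-126-/- arteries (mice 1 to 4), against 3.83, 2.89, 3.76 and 4.17 in the miR-126+/+ arteries. The highest value was miR-126-/- 4 and the lowest miR-126+/+ 2, and 2 of 4 miR-126-/- mice exceeded every miR-126+/+ mouse. The means were 4.12 ± 0.38 in miR-126-/- and 3.66 ± 0.55 in miR-126+/+ mice (SD, n = 4 each), a difference of 0.46 ± 0.30 (SE), or 1.38-fold with a 95% interval of 0.857 to 2.21, and an adjusted p of 0.700 in limma. This was the largest difference among the 10 brightest probes. Without miR-126+/+ 2 it was 0.20, and without both arrays that were high in skeletal muscle genes it was 0.23.

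Fbn1 and Fbn2 encode the fibrillins that build the microfibril scaffold, Fbn2 being the form best known from development. Fbn1 gave 4.15, 4.50, 4.25 and 4.15 in miR-126-/- mice, compared with 4.30, 3.99, 4.75 and 4.44 in miR-126+/+ mice. Its miR-126-/- values all lay inside the miR-126+/+ range, and the difference was -0.11 ± 0.17 (adjusted p = 0.894 in limma). Fbn2 gave 1.30, 1.41, 1.93 and 0.65 in miR-126-/- mice, compared with 1.73, 1.02, 2.17 and 0.79 in miR-126+/+ mice. Its pooled SD within genotypes, 0.584, was the highest of the 10 brightest probes, with slide column 3 highest and column 4 lowest in both genotypes. The difference of -0.10 ± 0.36 had a 95% interval of 0.520-fold to 1.66-fold, and its SE was 0.17 with slide column as a block (adjusted p = 0.918 in limma). Its sign was not stable: it was 0.14 without miR-126+/+ 3, 0.12 without miR-126-/- 4, and 0.92 ± 0.45 with the adipocyte list mean in the fit. The second Fbn2 probe differed by -0.18 ± 0.33, and over the 8 arrays the pair correlated at 0.968.

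Fbln5, which binds elastin and carries it to the microfibril, gave 5.40, 5.88, 5.25 and 5.80 in miR-126-/- mice, compared with 5.58, 5.22, 5.48 and 5.46 in miR-126+/+ mice. Arrays miR-126-/- 2 and 4 were above all others and miR-126+/+ 2 was the lowest, and the difference was 0.15 ± 0.16 (adjusted p = 0.827 in limma), or 0.05 without miR-126-/- 2. On the second Fbln5 probe, the one further along the transcript, the difference was 0.06 ± 0.24. That probe read -3.32 ± 0.46 in miR-126-/- arteries and -3.38 ± 0.26 in miR-126+/+ arteries (SD, n = 4 each). It was dim, at 40.7 to 91.1 intensity units, against 23157 to 39344 for the first probe. Medians over all probes of an array were 41.7 to 57.5 units, so this pair is a weak check. Its 2 probes correlated at 0.774. Fbln2, a fibulin of vessel walls that also binds elastin and fibrillin, gave 5.63, 5.91, 5.93 and 5.81 in miR-126-/- mice, compared with 5.51, 5.23, 5.87 and 5.88 in miR-126+/+ mice. The groups overlapped, with a difference of 0.20 ± 0.16 (adjusted p = 0.770 in limma), or 0.07 without miR-126+/+ 2.

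Fbln1, a fibulin found within the amorphous elastic core, was the member with the largest difference on any probe, and its probes gave different sizes. The brighter probe read 4.57, 4.56, 4.41 and 4.18 in miR-126-/- mice, compared with 5.02, 4.36, 4.66 and 4.65 in miR-126+/+ mice. The second probe, whose sequence above ends in TGA, read 2.93, 3.08, 2.60 and 1.99 in miR-126-/- mice, compared with 3.61, 2.97, 3.10 and 3.30 in miR-126+/+ mice. On both probes miR-126+/+ 1 was the highest array and miR-126-/- 4 the lowest, and on the second probe 3 of 4 miR-126-/- values lay below all miR-126+/+ values. The differences were -0.24 ± 0.16 (adjusted p = 0.701 in limma) and -0.60 ± 0.25 (unadjusted p = 0.0453, adjusted p = 0.495 in limma; exact permutation p = 0.0571). The second probe therefore did not pass the test over all probes. The pair correlated at 0.903, and whether the 2 probes differ in their genotype difference was not tested. The brighter probe went against the adipocyte list mean, which was higher in miR-126-/- mice (r = -0.704, rho = -0.714, centred r = -0.562; exact permutation p = 0.0479 for r and 0.0576 for rho, adjusted p = 0.240 and 0.320). Without miR-126+/+ 1 and miR-126+/+ 3, the arrays farthest from the list median, r was -0.398. The brighter probe differed by 0.0619 ± 0.25 with the adipocyte list mean in the fit, the opposite sign, and by -0.13 without miR-126+/+ 1.

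Lox and Loxl1 encode the enzymes that oxidise lysines so that elastin, and for Lox also collagen, can cross-link. Lox gave 1.29, 1.63, 1.50 and 1.25 in miR-126-/- mice, compared with 1.34, 0.88, 2.35 and 1.30 in miR-126+/+ mice. Both the highest and the lowest value came from miR-126+/+ mice, whose SD was 0.62, against 0.18 in miR-126-/- mice, and this difference in spread was not tested. The genotype difference was -0.05 ± 0.29 (adjusted p = 0.970 in limma), turning to 0.24 without miR-126+/+ 3 and to 0.51 with the adipocyte list mean in the fit. The second Lox probe, which followed the first at a correlation of 0.989, gave -0.01 ± 0.32.

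Loxl1, which is tethered to the elastic fibre through Fbln5, gave 5.15, 5.64, 5.76 and 5.30 in miR-126-/- mice, compared with 5.52, 4.93, 5.52 and 5.67 in miR-126+/+ mice. The groups overlapped almost fully. The brighter probe differed by 0.05 ± 0.20 and the second by -0.08 ± 0.20, opposite signs that both lay within 1 SE of 0, at a correlation of 0.882 between the pair. The 95% interval of the brighter probe ran from 0.753-fold to 1.43-fold.

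Mfap4 and Mfap5 encode proteins that decorate microfibrils, Mfap4 binding tropoelastin and fibrillin and Mfap5 (also called MAGP-2) binding fibrillin. Mfap4 gave 5.85, 6.43, 5.98 and 6.33 in miR-126-/- mice, compared with 6.08, 5.42, 5.40 and 6.38 in miR-126+/+ mice. Arrays miR-126+/+ 2 and 3 lay below all others, and the difference of 0.33 ± 0.25 did not pass (adjusted p = 0.758 in limma). It was 0.19 without either of these arrays, 0.51 without miR-126+/+ 4, and -0.19 with the adipocyte list mean in the fit. Mfap5 gave 6.06, 6.55, 6.53 and 6.46 in miR-126-/- mice, compared with 6.62, 6.10, 6.54 and 6.55 in miR-126+/+ mice, with a difference of -0.05 ± 0.16. The low Mfap5 values, 6.06 and 6.10, were those of the arrays high in skeletal muscle genes, miR-126-/- 1 and miR-126+/+ 2, while the other 6 lay between 6.46 and 6.62. The part of skeletal muscle RNA in these values was not tested.

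**Figure D2:**
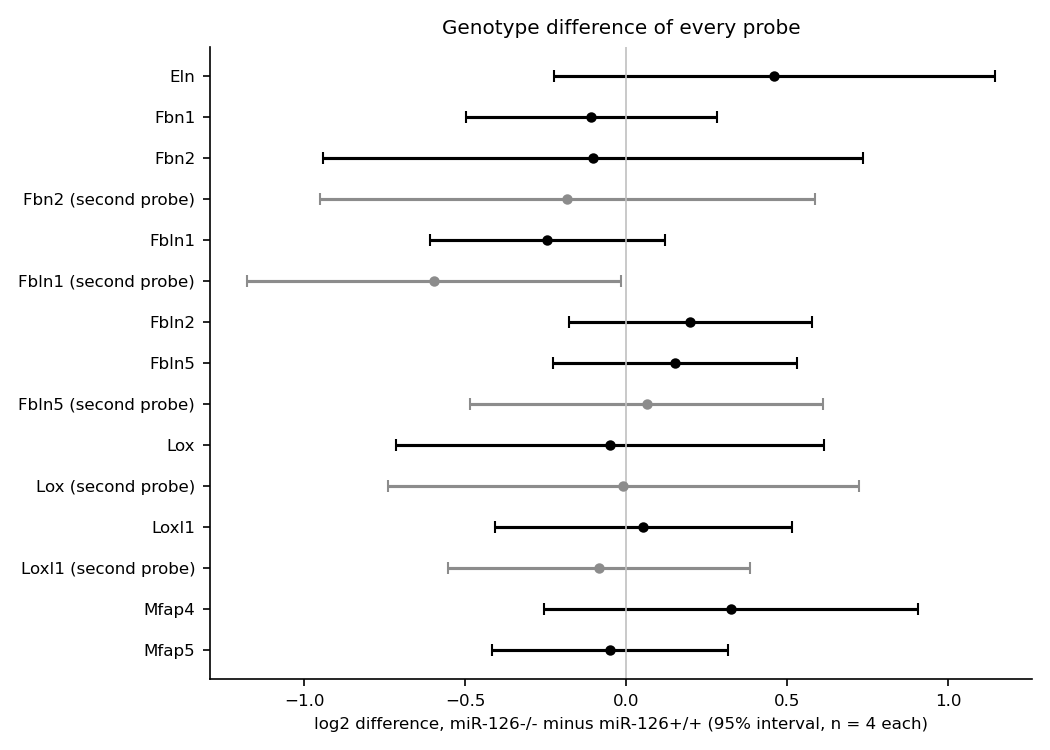
The plot gives the log2 difference, miR-126-/- minus miR-126+/+, of each of the 15 probes with its 95% interval (n = 4 each), brightest probes in black and second probes in grey. The interval of 14 probes includes 0, and that of the second Fbln1 probe ends at -0.02.

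No genotype difference passed, but the members varied between mice, and some varied together. Across the 8 arrays 40 of the 45 pairs of members had a positive Pearson correlation and 5 a negative one, with a median of 0.441. No such count was made over pairs of all genes, so these values have no background to be read against. Array miR-126+/+ 2 was the lowest of the 8 for 6 of the 10 genes, and its part in the count was not tested. Eln went with Fbln5 (r = 0.812, rho = 0.786) and with Mfap4 (r = 0.800, rho = 0.762), and within genotypes, after centring each on its mean, r was 0.788 and 0.749. Without the arrays farthest from the Eln median, miR-126-/- 4 and miR-126+/+ 2, these were 0.737 and 0.686. Fbn1 went with Lox (r = 0.905, rho = 0.881, centred r = 0.919), with miR-126+/+ 3 highest and miR-126+/+ 2 lowest for both genes, and r was 0.606 without those 2 arrays. Fbln2 went with Loxl1 (r = 0.813, rho = 0.905), at 0.920 without miR-126+/+ 1 and miR-126+/+ 2. The relation of Loxl1 to Mfap5 (r = 0.864, rho = 0.571) rested on miR-126-/- 1 and miR-126+/+ 2, without which r was 0.404. Fbn2 went with Lox (r = 0.716, rho = 0.810), at 0.541 without miR-126-/- 4 and miR-126+/+ 3.

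No pair passed after adjustment over the 45. The exact permutation p of r, over all orders of the 8 arrays, was 0.00171 for Fbn1 with Lox (adjusted p = 0.0770), 0.0104 for Eln with Fbln5, 0.0114 for Eln with Mfap4, 0.0127 for Fbln2 with Loxl1 and 0.0104 for Loxl1 with Mfap5 (adjusted p = 0.115 each), and 0.0295 for Fbn2 with Lox (adjusted p = 0.221). The permutation p of rho was 0.00724, 0.0279, 0.0368, 0.00456, 0.151 and 0.0218 in the same order, and 0.163, 0.276, 0.276, 0.163, 0.400 and 0.276 after adjustment. These 6 pairs were the only ones of the 45 with an unadjusted permutation p of r under 0.05. All pairs share the same arrays and the same scaling.

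**Figure D3:**
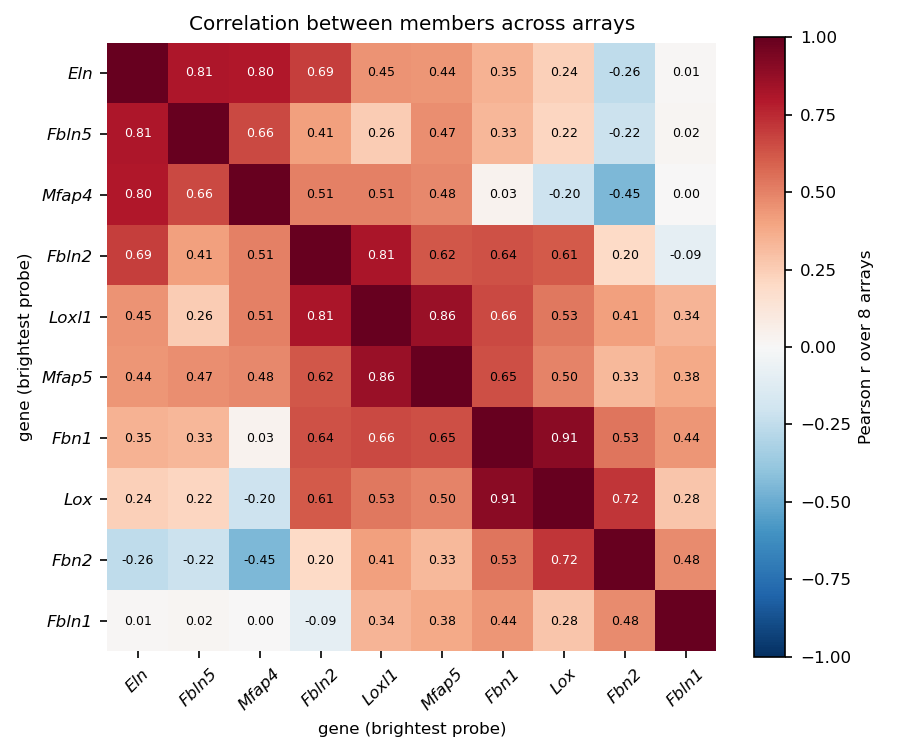
The matrix shows Pearson's r over 8 arrays for each of the 45 pairs of members (brightest probes), from blue at -1 to red at 1. Eln, Fbln5 and Mfap4 stand together at 0.66 to 0.81, Fbn1 and Lox at 0.91, and Mfap4 and Fbn2 are the most opposed at -0.45.

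Some members followed cell type markers across the arrays, in a comparison chosen after their values were seen. The mean of 9 smooth muscle markers was 3.40 to 3.95 in miR-126-/- arteries and 3.14 to 3.45 in miR-126+/+ arteries. Of these 9 genes 7 were higher, with a median difference of 0.21. Des, which is among them, was highest on the arrays high in skeletal muscle genes, miR-126-/- 1 (1.65) and miR-126+/+ 2 (0.85). The part of Des in the list mean was not tested. The smooth muscle list mean was lowest on array miR-126+/+ 2. It correlated with Fbln5 at r = 0.892 (rho = 0.833, centred r = 0.904), with Eln at 0.811 (rho = 0.810, centred r = 0.742) and with Mfap4 at 0.758 (rho = 0.905, centred r = 0.691). Without the arrays farthest from its median, miR-126-/- 2 and miR-126+/+ 2, these were 0.821, 0.784 and 0.647. The mean of 9 fibroblast markers was 6.19 to 6.45 in miR-126-/- arteries and 6.06 to 6.50 in miR-126+/+ arteries. It correlated with Loxl1 (r = 0.890, rho = 0.714), Fbn1 (r = 0.866, rho = 0.905) and Mfap5 (r = 0.791, rho = 0.714), and at 0.731, 0.770 and 0.819 without miR-126-/- 4 and miR-126+/+ 2. The 2 lists did not sort these genes cleanly. Centred r with the smooth muscle list was 0.530 for Loxl1, 0.622 for Fbn1 and 0.694 for Mfap5. With the fibroblast list it was 0.393 for Fbln5, 0.633 for Eln and 0.506 for Mfap4. Whether a gene followed 1 list more than the other was not tested. Of 50 such relations (10 genes against the smooth muscle, fibroblast, macrophage, adipocyte and skeletal muscle lists) 0 passed after adjustment and 10 had an unadjusted permutation p of r under 0.05. The 10 included Fbln2 with fibroblast markers (r = 0.713, rho = 0.548, adjusted p = 0.233 and 0.517 by permutation), at 0.528 without the same arrays. They also included Loxl1 and Mfap5 with skeletal muscle genes, for which no r is given because 2 arrays stand apart from the other 6 on that list. The smallest p was 0.00129, for Fbln5 with the smooth muscle markers (adjusted p = 0.0645). That for Eln was 0.0251 and that for Mfap4 0.0189 (adjusted p = 0.160 each). The fibroblast list gave 0.00419 for Loxl1 and 0.00489 for Fbn1 (adjusted p = 0.0814 each) and 0.0221 for Mfap5 (adjusted p = 0.160). The permutation p of rho was 0.0154, 0.0218 and 0.00456 for Fbln5, Eln and Mfap4 with smooth muscle markers (adjusted p = 0.256, 0.272 and 0.114), and 0.0576, 0.00456 and 0.0576 for Loxl1, Fbn1 and Mfap5 with fibroblast markers (adjusted p = 0.320, 0.114 and 0.320).

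**Figure D4:**
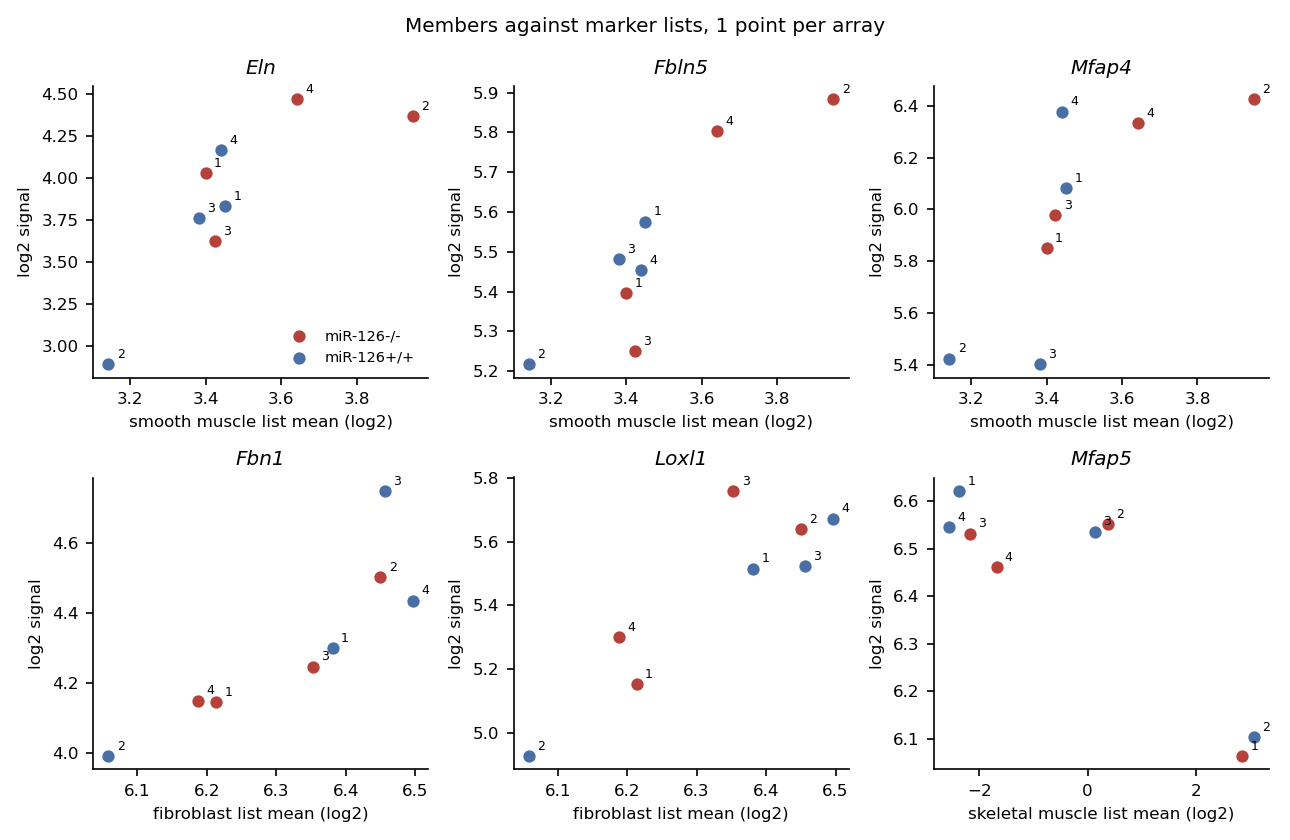
Each point is an array, numbered by mouse, with miR-126-/- in red and miR-126+/+ in blue, and each panel sets the log2 signal of a gene against the mean log2 signal of a marker list. Fbln5 spans 5.22 to 5.88 along the smooth muscle list mean of 3.14 to 3.95, and Mfap5 is at 6.06 and 6.10 on the 2 arrays with skeletal muscle list means of 2.85 and 3.07.

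The genes whose pattern over the 8 arrays was most like that of Eln were on none of the lists used here. Among 14977 genes with a symbol, the 5 with the highest Pearson's r were Olfr482 (0.970), Tbc1d12 (0.962), Kdm2a (0.958), Gapvd1 (0.945) and Nrn1l (0.941). Without miR-126-/- 4 and miR-126+/+ 2 their r was between 0.815 and 0.888. Olfr482, an olfactory receptor gene, read -3.24, -2.97, -3.66 and -3.03 in miR-126-/- mice, compared with -3.65, -4.49, -3.76 and -3.43 in miR-126+/+ mice, low on miR-126+/+ 2 like Eln. These are the top of a long ranking over 8 arrays and are given as a description.

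Among genes around the assembly pathway 0 of 59 tested passed in limma and 3 (5.08%) at an unadjusted p under 0.05, against 10.1% of all genes. By the brightest probe 22 had a positive difference and 37 a negative one, with a median difference of -0.07. The genotypes did not overlap for 2 of the 59 (3.39%), against 6.27% of all genes, and whether these shares differ was not tested. The microfibril network list held 17 genes: emilins, latent TGF-beta binding proteins, other genes named as microfibril-associated, and ADAMTS and ADAMTS-like genes. Of these 17 genes 7 were higher and 10 lower, median -0.06. Of 13 relatives of the fibulins and lysyl oxidases, including genes for copper supply and pro-enzyme cleavage, 4 were higher and 9 lower, median -0.09. Of 10 receptor genes 7 were higher and 3 lower, median 0.05. Of 16 elastin-degrading proteases and inhibitors 4 were higher and 12 lower, median -0.13, and all 3 TGF-beta ligand genes were lower by at most 0.09. Tll2, Itgb6 and Mmp7 did not enter the test.

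The 2 genes without overlap are given as values. Tll1, a tolloid protease that cleaves pro-lysyl oxidase and procollagens, read -2.90, -2.47, -2.83 and -2.44 in miR-126-/- mice, compared with -1.68, -1.72, -1.18 and -1.64 in miR-126+/+ mice. The difference was -1.10 ± 0.17 (adjusted p = 0.0886 in limma). The second Tll1 probe, dimmer at a mean of -3.48 against -2.11, gave -0.41 ± 0.10 (adjusted p = 0.248 in limma), also without overlap. Adamtsl2, a secreted protein that binds fibrillin and latent TGF-beta binding protein, read -2.04, -2.86, -2.85 and -2.75 in miR-126-/- mice, compared with -0.68, -1.19, -1.88 and -1.38 in miR-126+/+ mice. The difference was -1.34 ± 0.28 (adjusted p = 0.185 in limma), and neither gene passed over all probes.

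The next genes by unadjusted p of the brightest probe differed less. Emilin3, an emilin, differed by -0.60 ± 0.28 (adjusted p = 0.549 in limma). Hmcn1, a giant fibulin relative, differed by -0.55 ± 0.29 on its brightest probe (adjusted p = 0.616 in limma). Its second probe gave -0.75 ± 0.23 (unadjusted p = 0.0111, adjusted p = 0.323 in limma) and did not pass either. Elane, neutrophil elastase, differed by -0.24 ± 0.14 (adjusted p = 0.641 in limma). In the other direction Prtn3, the neutrophil protease 3 gene, differed by 0.34 ± 0.13 (adjusted p = 0.455 in limma), and Hmcn2 (0.26 ± 0.23), Ltbp2 (0.27 ± 0.30), the integrin gene Itga8 (0.23 ± 0.24) and Itgav (0.10 ± 0.09) had differences close to their SE.

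**Figure D5:**
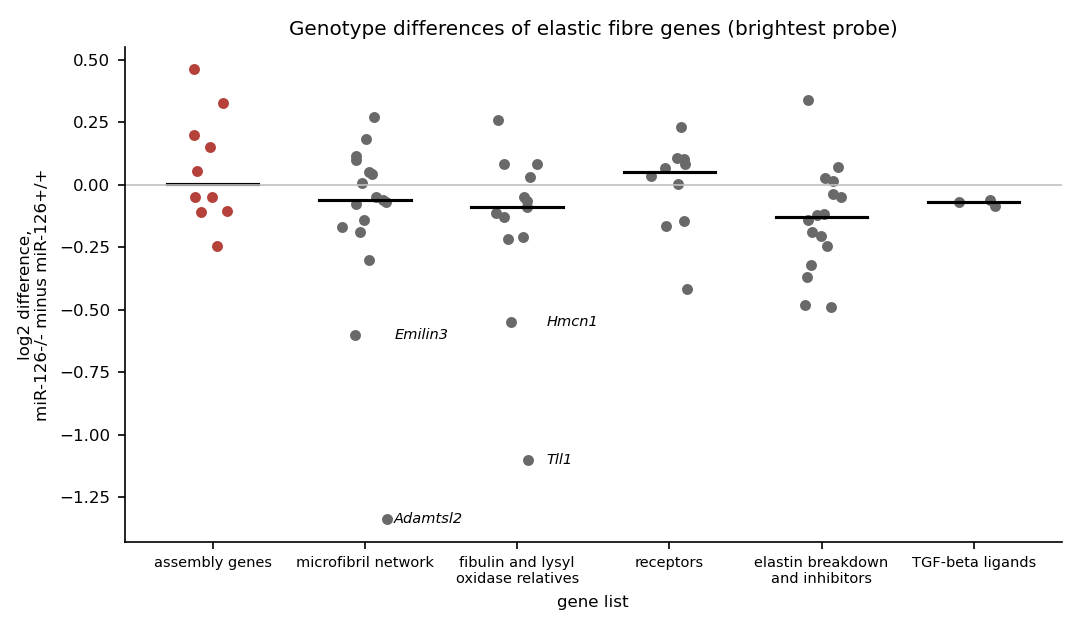
Each point is the log2 difference, miR-126-/- minus miR-126+/+, of a gene's brightest probe, for the 10 assembly genes (red) and 5 lists around them (grey), with the list median as a bar. The assembly genes lie between -0.24 and 0.46, and Adamtsl2 (-1.34) and Tll1 (-1.10) lie lowest among the genes shown.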

How the data were processed

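Per the file headers, Agilent Feature Extraction 10.7.3.1 read each 1-colour array. The values used are its deposited processed signals, in linear intensity units, from which that program had subtracted background and a spatial trend. Per the labels' protocols, 100 ng of total RNA was labelled with Cy3. The authors' deposited table repeats these intensity values (median log2 difference 0 on each array, 99.9% of probes within 0.1, column medians 41.7 to 57.5).

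Control and outlier spots were left out, spots of a probe averaged, and log2 signal taken relative to the array's 75th percentile (518.2 to 736.1 intensity units). Probes well above background on at least 3 of 4 arrays of a genotype were tested (32484), each on its own, with limma 3.58.1 in R 4.3.3 (6 residual degrees of freedom, two-sided, Benjamini-Hochberg over all probes, threshold 0.05), tested on simulated data. The fit was made without pairing. The brightest probe is that of highest mean signal among a gene's tested probes. Correlations used every order of the 8 arrays. Other than for the members, symbols came from RefSeq accessions (GRCm38.p6, names only) for 26413 probes (47.4%). Python 3.11.15 with pandas 2.3.3, numpy 2.4.6, scipy 1.17.1 and matplotlib 3.10.9 served for the rest.

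The members, lists, tests and alternatives were chosen with earlier results of these data known. Named genes are the members, Egfl7, Apoe, the 5 wider-list genes of smallest p in each direction, and the 5 most like Eln. Alternatives were other background corrections, scalings, filters, probe rules, variance models, covariates, the replicate block, spots of a dim area of array miR-126-/- 4 (0 member probes) and arrays left out. Number of arrays limits the precision.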

Additional observations from a re-analysis of the deposited data

Results flagged for a closer look

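Of 30 groups of 4 values (15 probes in each genotype) 1 held a value set apart from the rest, where chance gives about 1 in 20. Mfap5 in miR-126+/+ 2 had a log2 signal of 6.10, and the other 3 miR-126+/+ arteries lay between 6.54 and 6.62. That array had a skeletal muscle list mean of 3.07, and the part of skeletal muscle RNA in this value was not tested.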

How the results depend on the processing

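Across 22 alternatives 0 of the 10 genes were called by their brightest probe, with a lowest limma adjusted p of 0.397. Eln, Fbln2 and Fbln5 kept a positive difference in all of them, but without single arrays it ran from 0.20 to 0.63, 0.07 to 0.29 and 0.05 to 0.26. Adding the adipocyte list as a covariate turned the sign for Fbn1 (0.0645), Fbn2 (0.92), Fbln1 (0.0619), Lox (0.51), Loxl1 (-0.0200) and Mfap4 (-0.19). That list mean was 3.54 to 4.51 in miR-126-/- and 2.18 to 3.60 in miR-126+/+ arteries, so the fit separates it poorly from genotype. With it the SE went from 0.17 to 0.29 for Fbn1, 0.36 to 0.45 for Fbn2 and 0.16 to 0.25 for Fbln1. Lox turned with array weights (0.10), and Loxl1 with normexp (-0.0041) and without miR-126+/+ 2 and miR-126-/- 1 (-0.0041). Leaving out single arrays gave ranges of -0.23 to 0.0187 for Fbn1, -0.32 to 0.14 for Fbn2, -0.35 to -0.13 for Fbln1, 0.19 to 0.51 for Mfap4, -0.24 to 0.24 for Lox, -0.11 to 0.16 for Loxl1 and -0.17 to 0.0636 for Mfap5. The cause was not tested. The list medians of the surrounding genes kept their sign with the mean of all probes.

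The 12 probes called over the whole array became 34 with normexp, 7 with the stricter filter, 23 with the brightest probe of each gene, 56 with array weights, 1 with the skeletal muscle covariate, and 0 with the adipocyte covariate or without miR-126+/+ 2 and miR-126-/- 1. Without single arrays they ran from 0 (without miR-126-/- 2) to 50 (without miR-126+/+ 4). In limma the settings with 0 calls had 1462 (adipocyte covariate), 2657 (both arrays left out) and 2475 (without miR-126-/- 2) probes at an unadjusted p under 0.05. Replicate numbers are also slide columns. Over all probes the deviations of same-numbered arrays correlated at -0.285 to 0.175, so the mice are not treated as pairs. With the replicate number as a block 0 probes were called (2888 at an unadjusted p under 0.05). With 1 array of each genotype per number a block cannot move a difference, such as 0.46 for Eln, and alters only its error.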
